A study of Saccharomyces cerevisiae with 8 samples.

Results

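Strains whose GAP1 copy number variant (CNV) arose by origin-dependent inverted-repeat amplification (ODIRA) were compared with strains whose CNV arose in other ways. The ODIRA side held 4 ribosome profiling libraries, those of ODIRA_A (DGY1735) and ODIRA_B (DGY1743), and the other side held the 4 libraries of Trans (DGY1726) and ComQuad (DGY1741), which together are all 8 libraries of the series. All 4 strains descend from FY4, an S288C laboratory strain of Saccharomyces cerevisiae, carry a GFP and KanMX reporter cassette beside GAP1, and were grown in chemostats in which glutamine was the limiting nutrient. ODIRA_A and Trans were isolated at generation 150 and ODIRA_B and ComQuad at generation 250, so each side holds 1 isolate of each age. Each strain is 1 evolved clone with 2 libraries from separate chemostats. A difference between the sides is therefore a difference between these 4 clones, and the mechanism of the CNV cannot be told apart from the rest of each clone's history. The contrast of mechanisms is also not clean, since the study assigns an ODIRA step to ComQuad and ODIRA breakpoints to the chromosome V CNV of Trans.

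Ribosome profiling sequences the mRNA fragments that ribosomes shield from nuclease (ribosome protected fragments, RPFs), so the RPF abundance of a gene depends both on how much of its mRNA a cell holds and on how heavily that mRNA is loaded. GAP1 encodes the general amino acid permease, and extra copies of it are repeatedly selected when an amino acid is the only nitrogen source. In ODIRA, short inverted repeats beside a replication fork allow the newly made strands to be joined across the fork, and the closed piece of DNA is copied from an origin inside it and reinserted, which leaves extra copies with the middle one inverted. Ty retrotransposon repeats give tandem copies by recombination between them, and a translocation carries a chromosome arm to another chromosome.

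The inverted repeats are short. The sequences below are the breakpoint contigs of an ODIRA_A junction in ALY1 and of the ODIRA step of ComQuad in SET3, taken from the supplementary breakpoint calls of the study, each above the R64 reference that it spans (RefSeq, plus strand). They are shown because both sides of the comparison carry a junction of this kind. Capitals mark the 4 bases at which the strand turns in the contig, and in the reference the same bases and their reverse complement.
ODIRA_A contig: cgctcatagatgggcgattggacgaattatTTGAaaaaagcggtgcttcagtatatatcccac
Reference chrXI:479636-479717: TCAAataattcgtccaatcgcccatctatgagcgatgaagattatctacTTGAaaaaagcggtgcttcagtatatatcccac
ComQuad contig: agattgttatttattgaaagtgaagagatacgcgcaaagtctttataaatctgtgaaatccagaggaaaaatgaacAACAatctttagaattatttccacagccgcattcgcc
Reference chrXI:498246-498354: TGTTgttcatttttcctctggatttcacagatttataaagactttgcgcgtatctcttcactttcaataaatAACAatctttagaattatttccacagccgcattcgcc

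In the ODIRA_A contig the reference was read from 479669 down to 479636 on the minus strand and went on from 479685 to 479717 on the plus strand, and 45 bases separated the arms of the repeat. The ComQuad contig ran from 498325 down to 498246 and then from 498318 to 498354, with 68 bases between the arms. The first 16 bases of the ODIRA_A contig are not shown, and no contig was used here for ODIRA_B. From the first to the last uncut gene with more than 1 copy, the amplified stretch of chromosome XI was 157.8 kb with 3 annotated origins in ODIRA_A, 189.8 kb with 5 in ODIRA_B, 204.4 kb with 5 in Trans and 30.2 kb with 1 in ComQuad.

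RPFs on coding sequence numbered 7847392 and 8842034 in the 2 libraries of ODIRA_A, 3923583 and 3723082 in ODIRA_B, 7990570 and 7708635 in Trans, and 11459498 and 7763542 in ComQuad. ODIRA_B was thus sequenced least deeply, so counting error was widest there for genes of few RPFs. A list of 8 mitochondrially encoded genes summed to 110 and 128 CPM (RPF counts scaled to library size by TMM, with the same scale used throughout) in ODIRA_B. It summed to at most 1.87 CPM in any library of the other 3 strains. All mitochondrially encoded genes together had 1317 and 1618 RPFs in ODIRA_B and at most 53 in any library of the others. With all mitochondrially encoded genes left out of the table, 1029 genes differed between the sides, against 1038 with them, and all 24 shared genes (defined below) stayed shared. The replicates of Trans differed most: 143 genes differed by more than 1 on the log2 scale between its libraries, against 72 in ODIRA_A, 70 in ODIRA_B and 32 in ComQuad.

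Few of the differences between the sides were shared by all 4 comparisons of an ODIRA strain with another strain. The shared genes that were higher in the ODIRA strains lay almost all on the right arm of chromosome XI, where the ODIRA CNVs hold more copies. Outside the CNVs, 1 gene that was higher, ADE8 of purine synthesis, passed the threshold in all 4 comparisons in edgeR, as did 6 that were lower, among them the a-factor gene MFA2, the cell wall mannoprotein gene TIP1 and the cell cycle repressor gene YOX1. Strain was the term of the model, and the mean of ODIRA_A and ODIRA_B was tested against the mean of Trans and ComQuad with edgeR's quasi-likelihood test and Benjamini-Hochberg adjustment. Of 5725 genes tested, 596 (10.4%) were higher and 442 (7.72%) lower in the ODIRA strains at an adjusted p under 0.05. Genes were called shared when all 4 pairwise comparisons had the same sign and each passed the same threshold: 18 (0.314%) were higher and 6 (0.105%) lower. By a looser rule, in which the side test was passed and all 4 ODIRA libraries lay beyond all 4 others, 176 genes (3.07%) were higher and 132 (2.31%) lower.

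These tests take their error from the spread between libraries of a strain. At the level of strains the comparison is 2 against 2, for which the smallest two-sided exact permutation p is 0.333. With the counts summed per strain, edgeR called 0 genes, with 113 at an unadjusted p under 0.05, and with side as the only term over the 8 libraries it also called 0, with 714 at an unadjusted p under 0.05. With side and generation as terms over the 8 libraries, 270 genes were called, 122 higher and 148 lower, and all 24 shared genes were among them. That model also counts the libraries of a clone as separate replicates, and the shared genes came from the same libraries. It is therefore no test at the level of strains.

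The shared genes of chromosome XI are considered first. Copy numbers given by the study divide the amplified part of the chromosome into 9 segments by how many copies each strain carries. The longest, from YKR051W to ESL2 (chrXI:530946-630380, 48 genes), has 3 copies in ODIRA_A, 3 in ODIRA_B, 2 in Trans and 1 in ComQuad, and it is the only segment in which both ODIRA strains hold more copies than both others. Of 47 genes tested, 46 were higher in the ODIRA strains, 38 with all 4 ODIRA libraries above all 4 others, and 16 were shared. On the log2 scale the median difference in RPFs was 1.09, where the copies alone give 1.085.

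**Figure D1:**
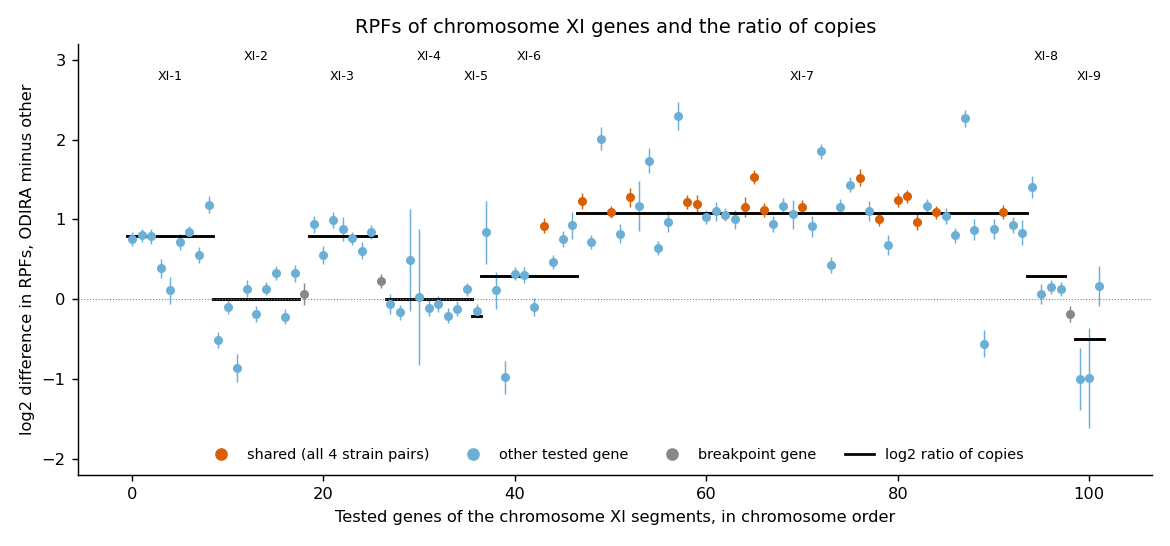
Log2 difference in RPFs, ODIRA strains minus the others, for each tested gene of the chromosome XI segments in chromosome order; bars are standard errors of the fit and black lines the log2 ratio of copies. In segment XI-7, from YKR051W to ESL2, the median of 1.09 lies on the copy ratio of 1.085, whereas XI-4, at equal copies, has a median of -0.06.

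Within this segment the 4 pairs of strains followed their own ratios of copies. The median difference was 0.65 for ODIRA_A minus Trans and 0.50 for ODIRA_B minus Trans, where the copies give 0.585, and 1.58 for either ODIRA strain minus ComQuad, where the copies give 1.585. Dynein heavy chain is an example of a gene that moved with its copies: DYN1 (YKR054C, chrXI:535647-547925) had 209 and 206 CPM in ODIRA_A, 222 and 222 in ODIRA_B, 128 and 132 in Trans and 76.7 and 79.7 in ComQuad. Its libraries fell into 3 levels, those of the ODIRA strains together at the top, Trans between and ComQuad lowest (side log2 difference 1.09, standard error 0.08, adjusted p = 1.1e-05). TFA2, a subunit of the general transcription factor TFIIE, had 156 and 158 CPM in ODIRA_A, 149.6 and 154 in ODIRA_B, 102 and 84.5 in Trans and 46.9 and 47.2 in ComQuad (side log2 difference 1.22, standard error 0.09, adjusted p = 1.3e-05). MLP1, of the nuclear pore basket, had 476 and 549 CPM in ODIRA_A, 417 and 444 in ODIRA_B, 308 and 312 in Trans and 155 and 158 in ComQuad (log2 difference 1.09, standard error 0.09, adjusted p = 2.2e-05). No library of an ODIRA strain overlapped with a library of the other side in any of these genes.

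The other shared genes of this segment do unlike things and share their position. They were the tRNA methyltransferase gene TRM2 (side difference 1.28), LAS1 of pre-rRNA processing (1.19), BET3 of the TRAPP vesicle tethering complex (1.16), NUP133 of the nuclear pore (1.00), HBS1 of ribosome rescue (1.24), MRPL20 of the mitochondrial ribosome (1.29), the splicing helicase gene PRP16 (0.97), TVP38 (1.09), YKR051W (1.23), YKR070W (1.11), AIM29 (1.16), MET1 (1.53) and MTD1 (1.53), all on the log2 scale and all with an adjusted p under 0.05 in each of the 4 pairs. The smallest of their pairwise differences was 0.37, for AIM29 in ODIRA_B minus Trans. Of the 16, 15 also had a smaller difference in ODIRA_A minus Trans than in ODIRA_B minus ComQuad by the test of that difference, and Trans has 2 copies where ComQuad has 1.

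When the copies of each strain were entered into the model as an offset, the calls on the right arm mostly disappeared. Over the segments of chromosomes XI and V, 106 genes were tested, of which 67 were higher and 11 lower before the correction, against 14 higher and 10 lower after it. No gene of these segments was shared after the correction, and 14 of the 16 shared genes of the YKR051W to ESL2 segment no longer passed even the side test. The exceptions were MET1 and MTD1. MET1, which makes the siroheme of sulphite reductase, had 283 and 300.2 CPM in ODIRA_A, 315 and 303 in ODIRA_B, 181 and 189 in Trans and 53.9 and 62.8 in ComQuad, so that ComQuad lay lower than its single copy gives, and the difference left after the correction was 0.45 (adjusted p = 0.0051). MTD1, a methylenetetrahydrofolate dehydrogenase, had 193 and 189 CPM in ODIRA_A, 276 and 274 in ODIRA_B, 119.8 and 89.6 in Trans and 55.4 and 65.8 in ComQuad, and 0.44 was left (adjusted p = 0.016). In MTD1 the libraries of ODIRA_B were above those of ODIRA_A, although both carry 3 copies.

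Several genes of the same segment departed from their copies without being shared. KTR2, a mannosyltransferase gene, had 22.6 and 17.6 CPM in ODIRA_A, 69.9 and 65.7 in ODIRA_B, 15.3 and 9.04 in Trans and 4.66 and 4.48 in ComQuad, and its difference after the correction was 1.21 (adjusted p = 0.0011). SRL3 had 29.7 and 35.3 CPM in ODIRA_A, 176 and 189 in ODIRA_B, 21.3 and 24.3 in Trans and 11.3 and 10.96 in ComQuad (1.19 after the correction, adjusted p = 6.1e-05). In both, ODIRA_B stood far above ODIRA_A. YSR3, a phosphatase of sphingolipid metabolism, was an extreme case of this, with 4.21 and 3.93 CPM in ODIRA_A, 375 and 463 in ODIRA_B, 8.48 and 7.18 in Trans and 14.5 and 11.96 in ComQuad: only ODIRA_B was high, and ODIRA_A was the lowest of the 4 strains. ECM4, a glutathione transferase gene, and GLG1, a glycogenin gene, had their lowest libraries in ComQuad. ECM4 had 315 and 395 CPM in ODIRA_A, 205 and 223 in ODIRA_B, 204 and 189 in Trans and 29.4 and 29.9 in ComQuad, and after the correction 0.77 was left (adjusted p = 5.0e-04). GLG1 had 46.2 and 64.6 CPM in ODIRA_A, 40.2 and 31.02 in ODIRA_B, 29.7 and 28.4 in Trans and 5.24 and 7.23 in ComQuad (0.65 left, adjusted p = 0.017). The tRNase Z gene TRZ1 also stayed higher (0.35, adjusted p = 0.025).

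Fewer RPFs than the copies give were found at 4 genes of this segment. PTR2, the transporter of short peptides, was the only one of the 47 genes that was lower in the ODIRA strains, and its lowest libraries were those of ODIRA_A: it had 31.9 and 30.7 CPM in ODIRA_A, 112 and 157 in ODIRA_B, 86.1 and 126 in Trans and 102 and 68.8 in ComQuad. Its side difference was -0.56, adjusted p = 0.046, and -1.64 after the correction (adjusted p = 1.9e-04). The side call was lost in 10 of 18 other settings, with differences from -0.69 to -0.22. TIF1, which encodes the helicase eIF4A, rose with its copies but by less, with 1678 and 1469 CPM in ODIRA_A, 1523 and 1424 in ODIRA_B, 1202 and 1198 in Trans and 804 and 784 in ComQuad and -0.44 after the correction (adjusted p = 0.0065). TIF1 shares 90.9% of its 28-base words with TIF2, so RPFs of TIF2 may also be counted at TIF1. Its shortfall against the copies therefore cannot be assigned to TIF1 alone. MSA2 (-0.66, adjusted p = 0.0014) and the mitochondrial iron carrier gene MRS4 (-0.37, adjusted p = 0.014) were the others.

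In the segments to the left, the copies set 1 or 2 strains apart from the rest. From VPS1 to FOX2 only ODIRA_B has 3 copies and the rest have 1, and 7 of 9 genes were higher on the ODIRA side with a median of 0.75 (copy ratio 0.79). There the dynamin-like VPS1 had 283 and 298 CPM in ODIRA_A, 1099.6 and 1165 in ODIRA_B, 314 and 328 in Trans and 378 and 342 in ComQuad, so that ODIRA_B stood alone. From TOF2 to VPS51, where ODIRA_B and Trans have 3 copies and the others 1, 1 of 9 genes was higher and 2 were lower, with a median of -0.10. From NTR2 to SAP190 only ComQuad has 1 copy and the rest have 3, and 7 of 7 genes were higher, with a median of 0.84 (copy ratio 0.79). The median was 1.62 for ODIRA_A minus ComQuad and 0.31 for ODIRA_A minus Trans, which have equal copies. Where all 4 strains have 3 copies, from GMH1 to KAE1, 0 of 9 genes passed the side test in edgeR, with a median of -0.06.

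GAP1 itself (YKR039W, chrXI:515063-516871) did not pass the side test. It had 8815 and 7798 CPM in ODIRA_A, 13517 and 13485 in ODIRA_B, 8795 and 7960.1 in Trans and 16145 and 16546 in ComQuad (side log2 difference -0.14, standard error 0.09, adjusted p = 0.3). Here the isolates of generation 250 were both above those of generation 150, and ComQuad, with 4 copies, was the highest. DAL80, the GATA repressor of nitrogen genes, had 913 and 899 CPM in ODIRA_A, 1046 and 1009 in ODIRA_B, 972 and 1291 in Trans and 981 and 921 in ComQuad (side -0.11, adjusted p = 0.52), with the sides overlapping.

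Between GAP1 and the right arm lies a segment from YKR040C to TRK2 in which Trans has 2 copies and the rest 3, and it held the only other shared gene of the CNVs. PET10 (YKR046C, chrXI:524223-525074), a perilipin of lipid droplets, had 2299 and 1984 CPM in ODIRA_A, 3298 and 3243 in ODIRA_B, 1361 and 1221 in Trans and 1528 and 1503 in ComQuad. All 4 ODIRA libraries were above all 4 others although ComQuad has as many copies (side log2 difference 0.92, standard error 0.09, adjusted p = 8.6e-05), and 0.63 was left after the correction for copies (adjusted p = 0.0012). TRK2, of the potassium transporter, and FMP46 also lay apart, with side differences of 0.93 and 0.76 and 0.64 and 0.46 after the correction. TRK2 had 65.2 and 72.2 CPM in ODIRA_A, 96.0 and 93.6 in ODIRA_B, 37.4 and 53.6 in Trans and 29.3 and 50.6 in ComQuad. The study places a ComQuad breakpoint just past the end of TRK2 and says that its 3' UTR may be cut short there. UTH1, a SUN family gene of the cell wall and a known target of the RNA-binding protein Ssd1, went the other way despite its copies: it had 460.0 and 214 CPM in ODIRA_A, 785 and 819.7 in ODIRA_B, 710.4 and 905 in Trans and 1284 and 1312 in ComQuad (side -0.98, adjusted p = 0.009). Its libraries of ODIRA_B overlapped with those of Trans (ODIRA_B minus Trans -0.009), and those of ODIRA_A differed widely from each other. The side call was lost in 5 of 18 other settings.

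Beside the right end, PCK1, which encodes phosphoenolpyruvate carboxykinase of gluconeogenesis, was ordered by generation before side. It had 1238 and 996 CPM in ODIRA_A, 83.3 and 73.5 in ODIRA_B, 332 and 489.9 in Trans and 31.01 and 29.4 in ComQuad. The isolates of generation 150 were far above those of generation 250, and within each generation the ODIRA strain was higher, by 1.44 (adjusted p = 0.0028) and 1.37 (adjusted p = 7.2e-04) on the log2 scale. ODIRA_A has 3 copies of it, Trans 2 and the others 1, and the side difference of 1.41 was 1.12 after the correction for copies. SKG1, the last gene of the same segment, did not pass the side test (0.13, adjusted p = 0.34). Of the genes that a breakpoint cuts, ALY1, an arrestin gene cut in ODIRA_A, had 131 and 138 CPM in ODIRA_A, 265 and 303 in ODIRA_B, 233 and 382 in Trans and 111 and 114 in ComQuad (side 0.07, adjusted p = 0.77), and SET3, cut in ComQuad, had 203 and 210.5 CPM in ODIRA_A, 220.4 and 214 in ODIRA_B, 219 and 263 in Trans and 129 and 142 in ComQuad (side 0.23, adjusted p = 0.1). ComQuad was the lowest strain in both. SIR1, also cut in ODIRA_A, had 52.0 and 43.9 CPM in ODIRA_A, 26.9 and 29.6 in ODIRA_B, 60.5 and 61.7 in Trans and 29.5 and 27.5 in ComQuad (side -0.18, adjusted p = 0.25). The genes cut in Trans passed the side test, SAK1 with 31.5 and 46.3 CPM in ODIRA_A, 29.1 and 36.1 in ODIRA_B, 74.3 and 88.8 in Trans and 33.9 and 31.9 in ComQuad (side -0.54, adjusted p = 0.022) and YER137C with 18.9 and 22.7 CPM in ODIRA_A, 10.8 and 10.6 in ODIRA_B, 94.6 and 68.1 in Trans and 10.98 and 14.6 in ComQuad (side -1.10, adjusted p = 9.0e-04), and Trans alone was high in each. SAK1 lost its call in 7 of 18 other settings.

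Outside the CNVs, 5607 genes were tested, 526 were higher and 428 lower in the ODIRA strains, and 7 were shared. The single shared rise was ADE8 (YDR408C, chrIV:1288215-1288859, minus strand), a glycinamide ribonucleotide transformylase of the de novo purine pathway. ADE8 had 68.8 and 55.3 CPM in ODIRA_A, 77.7 and 72.4 in ODIRA_B, 40.2 and 32.7 in Trans and 27.4 and 29.02 in ComQuad. The lowest ODIRA library was well above the highest of the others (side log2 difference 1.09, standard error 0.11, adjusted p = 1.0e-04), and the pairwise differences were 0.76 for ODIRA_A minus Trans, 1.14 for ODIRA_A minus ComQuad, 1.04 for ODIRA_B minus Trans and 1.41 for ODIRA_B minus ComQuad.

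**Figure D2:**
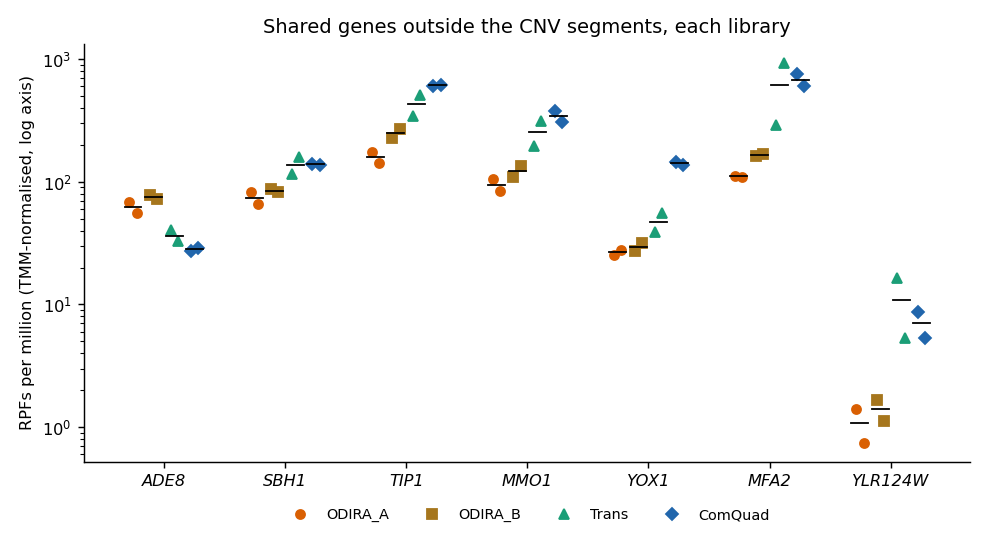
CPM (TMM-normalized, log axis) of the 7 shared genes outside the CNV segments in each library; points are libraries and short lines strain means. For ADE8 all 4 ODIRA libraries lie above the 4 others, from 55.3 CPM upwards, and for the 6 other genes below them.

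MFA2 (YNL145W, chrXIV:352414-352530) was among the 6 shared falls. It encodes the precursor of a-factor, the pheromone of a cells, and had 112 and 109 CPM in ODIRA_A, 161 and 169 in ODIRA_B, 290.1 and 931 in Trans and 755 and 605 in ComQuad (side log2 difference -2.25, standard error 0.34, adjusted p = 0.0038). The libraries of Trans differed more than 3-fold from each other, yet the lower of them was above every ODIRA library. MFA1, its paralog, was not shared, with 123 and 67.4 CPM in ODIRA_A, 493 and 370.0 in ODIRA_B, 188 and 242 in Trans and 766 and 800.2 in ComQuad, since ODIRA_B was above Trans. TIP1 (YBR067C, chrII:372103-372735), a cell wall mannoprotein, had 174 and 143 CPM in ODIRA_A, 229 and 269 in ODIRA_B, 347 and 513 in Trans and 607 and 614 in ComQuad (side log2 difference -1.37, standard error 0.13, adjusted p = 6.8e-05). Its order was ODIRA_A, ODIRA_B, Trans and ComQuad, with no overlap between the sides.

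YOX1 (YML027W, chrXIII:221406-222563), a homeodomain repressor of genes that turn on at the end of mitosis, had 25.3 and 27.8 CPM in ODIRA_A, 27.2 and 31.6 in ODIRA_B, 39.04 and 55.2 in Trans and 145 and 138 in ComQuad (side log2 difference -1.55, standard error 0.13, adjusted p = 2.3e-05). Both libraries of Trans lay above every ODIRA library, and ComQuad lay much further above. The difference was -0.83 at generation 150 and -2.27 at generation 250, and these differed from each other (interaction 1.44, adjusted p = 0.0038). SBH1 (YER087C-B, chrV:332582-332830), the beta subunit of the Sec61 translocon, had 82.5 and 65.7 CPM in ODIRA_A, 86.6 and 82.2 in ODIRA_B, 116 and 159.8 in Trans and 139 and 138 in ComQuad (side log2 difference -0.81, standard error 0.12, adjusted p = 9.5e-04). Its change was even, with pairwise differences between -0.90 and -0.71. MMO1 (YKL044W, chrXI:356322-356642) had 106 and 84.4 CPM in ODIRA_A, 109 and 136 in ODIRA_B, 195 and 312 in Trans and 378 and 309 in ComQuad (side log2 difference -1.45, standard error 0.16, adjusted p = 1.6e-04). It lies on chromosome XI but outside the CNVs. YLR124W (chrXII:391600-391944) had 1.40 and 0.743 CPM in ODIRA_A, 1.67 and 1.12 in ODIRA_B, 16.5 and 5.32 in Trans and 8.73 and 5.36 in ComQuad (side log2 difference -2.85, standard error 0.46, adjusted p = 0.0017), which are few RPFs, and YLR125W, which follows it on the same strand, went the other way, with 8.55 and 4.99 CPM in ODIRA_A, 14.4 and 5.87 in ODIRA_B, 0 and 0 in Trans and 2.33 and 3.36 in ComQuad. As Trans is at 0 RPFs there, no fold is given for YLR125W.

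Each of these calls needs all 4 pairs to pass, and the count of shared genes depended on single libraries. It was 157 without Trans replicate 1, of which 129 lay outside the CNVs, and 33 without Trans replicate 2. It was 9 and 0 without either library of ODIRA_A, 7 and 8 for ODIRA_B, and 11 and 13 for ComQuad. Of the 7 genes outside the CNVs, all 7 stayed shared without Trans replicate 1 and 6 without Trans replicate 2. Without either library of ODIRA_A, 3 and 0 did, 0 and 1 for ODIRA_B and 2 and 3 for ComQuad, and ADE8 was not shared in any of these 6 settings. DESeq2 found 38 shared genes, 19 of them outside the CNVs, and these 19 held all 7 and also FMO1 and SEO1.

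Further genes lay apart between the sides without passing in all 4 pairs. On the higher side these included SEO1, a putative permease gene, with 70.3 and 105 CPM in ODIRA_A, 114 and 125 in ODIRA_B, 54.8 and 54.5 in Trans and 27.3 and 19.4 in ComQuad (side 1.52, adjusted p = 6.6e-05), and FMO1, a flavin monooxygenase gene, with 123 and 137 CPM in ODIRA_A, 151 and 170.5 in ODIRA_B, 87.7 and 95.04 in Trans and 76.2 and 85.5 in ComQuad (0.75, adjusted p = 2.4e-04). NAR1 of iron-sulphur cluster assembly (0.59, adjusted p = 0.011), the haem-binding DAP1 (0.84, adjusted p = 0.0042) and NSE1 of the Smc5-Smc6 complex (0.89, adjusted p = 0.0081) were among them too. The acid phosphatase gene PHO11 (1.38) and the hydratase gene DDI3 (1.33) share 93.2% and 95.7% of their 28-base words with other genes, so the RPFs cannot be assigned to these loci alone. For PHO11 these genes include PHO12, in the end of chromosome VIII that Trans has lost. In Trans, PHO12 had 4.49 and 3.19 CPM and PHO11 had 4.49 and 3.32. The difference at PHO11 cannot be told apart from that of a gene whose copies differ between the strains. On the lower side were HTB2, SPS4, a gene of sporulation (adjusted p = 1.2e-04), YIL169C (-1.34, adjusted p = 3.3e-04), YDR222W (-1.18, adjusted p = 0.0016), YLR042C (-1.79, adjusted p = 0.0026) and YIL141W, which overlaps AXL2 on the same strand (-1.62, adjusted p = 0.002).

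Other genes of purine synthesis also passed the side test, though most of these overlapped between the sides. Purine synthesis builds the purine ring on ribose phosphate in a chain of reactions encoded by the ADE genes, draws 1-carbon units from glycine cleavage and from MTD1, and branches to GMP through the IMD genes. Of 27 genes of this list, 12 were higher in the ODIRA strains and 0 lower, against 10.4% and 7.72% of all genes, and the median difference was 0.27 against 0.00 over all genes. The number higher ran from 7 to 17 as 1 library at a time was left out. Of the 12, 3 lay apart between the sides: ADE8, ADE4 and MTD1. The list includes MTD1, BAS1 and IMD2, which lie in CNVs. IMD2 and its close relative IMD1 are both among the 12, and how far their RPFs can be told apart was not measured. The summed level of the 27 genes was 5587 and 5072 CPM in ODIRA_A, 6372 and 6318 in ODIRA_B, 5055 and 4887 in Trans and 4264 and 4600.4 in ComQuad. The lowest ODIRA library, at 5072, was only just above the highest of the others, at 5055. MTD1 alone, with 189 and 119.8 CPM in these 2 libraries, differed by more than that gap. The separation of the sums therefore rests on a CNV gene.

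ADE4, the amidophosphoribosyltransferase that commits to the pathway, had 124 and 134 CPM in ODIRA_A, 123 and 129 in ODIRA_B, 112 and 63.7 in Trans and 87.6 and 87.7 in ComQuad (side log2 difference 0.54, standard error 0.15, adjusted p = 0.029). Every ODIRA library was above the highest of the others, which was Trans replicate 1, and without that library the difference was 0.77, but the call was lost without any 1 library of ODIRA_A, ODIRA_B or ComQuad (lowest adjusted p 0.069). ADE1 had 235 and 213 CPM in ODIRA_A, 265 and 269 in ODIRA_B, 221 and 151 in Trans and 151 and 157 in ComQuad (side 0.53, adjusted p = 0.009), and the sides met between ODIRA_A and Trans. ADE17, a bifunctional enzyme of the last steps to IMP, had 503 and 433 CPM in ODIRA_A, 511 and 516 in ODIRA_B, 499 and 503 in Trans and 217 and 261 in ComQuad: ComQuad alone was low (side 0.50, adjusted p = 0.0045). ADE5,7 (0.29) had the same form. GCV1, a subunit of glycine decarboxylase, had 145 and 151 CPM in ODIRA_A, 364 and 340.4 in ODIRA_B, 132 and 155 in Trans and 92.96 and 116 in ComQuad, and there it was ODIRA_B that stood apart (side 0.90, adjusted p = 1.4e-04). GCV2, another subunit, was likewise high in ODIRA_B (0.50, adjusted p = 0.004).

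Among the IMP dehydrogenase genes, IMD2 lies in the end of chromosome VIII that Trans has lost, and had 110.3 and 94.7 CPM in ODIRA_A, 249.8 and 234 in ODIRA_B, 35.6 and 34.2 in Trans and 214 and 257 in ComQuad (side 0.80, adjusted p = 2.5e-04). RPFs remained in Trans, and IMD2 shares 14.0% of its 28-base words with IMD3 and IMD4. That check held 0 words of IMD1, so words that IMD2 shares with IMD1 are not in this percentage. Whether the RPFs counted at IMD2 in Trans came from IMD1 was not tested. IMD1, a close relative, overlaps YAR075W on the same strand and had 68.8 and 68.4 CPM in ODIRA_A, 124 and 115 in ODIRA_B, 40.3 and 21.1 in Trans and 84.6 and 98.04 in ComQuad, with Trans lowest as well. IMD3 had 450.0 and 394 CPM in ODIRA_A, 324 and 338 in ODIRA_B, 339.7 and 266 in Trans and 266 and 281 in ComQuad (side 0.38, adjusted p = 0.026).

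Many genes of purine synthesis and of amino acid synthesis carry TGACTC upstream, the core that Bas1 and Gcn4 recognise, read here on both strands (TGACTC or GAGTCA). The windows below run from 250 bases before to 50 bases after the start codon of ADE8 and MTD1 (RefSeq, R64, each on the strand of its gene), the shared members of the list, and capitals mark each match.
ADE8 chrIV:1288810-1289109 minus strand: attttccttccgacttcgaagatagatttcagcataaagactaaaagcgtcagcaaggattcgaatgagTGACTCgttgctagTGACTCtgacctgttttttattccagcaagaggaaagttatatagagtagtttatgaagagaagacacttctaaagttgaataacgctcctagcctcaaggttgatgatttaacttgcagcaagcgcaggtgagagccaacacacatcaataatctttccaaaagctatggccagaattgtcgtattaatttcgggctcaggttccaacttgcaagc
MTD1 chrXI:590145-590444 plus strand: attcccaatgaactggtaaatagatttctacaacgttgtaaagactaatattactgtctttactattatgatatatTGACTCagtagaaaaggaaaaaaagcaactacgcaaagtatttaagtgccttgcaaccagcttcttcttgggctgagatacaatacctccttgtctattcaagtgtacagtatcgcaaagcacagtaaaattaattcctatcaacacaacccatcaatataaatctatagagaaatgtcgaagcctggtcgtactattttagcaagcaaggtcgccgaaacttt

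ADE8 has 2 matches, at -181 and -167 from the start codon, and MTD1 has 1, at -174. The core was found in 12 of 26 windows of the list (46.2%), in 37 of 68 windows of amino acid biosynthesis genes (54.4%) and in 479 of 6020 windows in all (7.96%). Of the amino acid genes, 14 of 68 were higher and 3 lower, with a median of 0.14, against 10.4% and 7.72% of all genes, and the number higher ran from 4 to 23 as 1 library at a time was left out. ADE3 and ADE13 carry the core as well and did not pass the side test (-0.03, adjusted p = 0.83, and 0.13, adjusted p = 0.36).

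**Figure D3:**
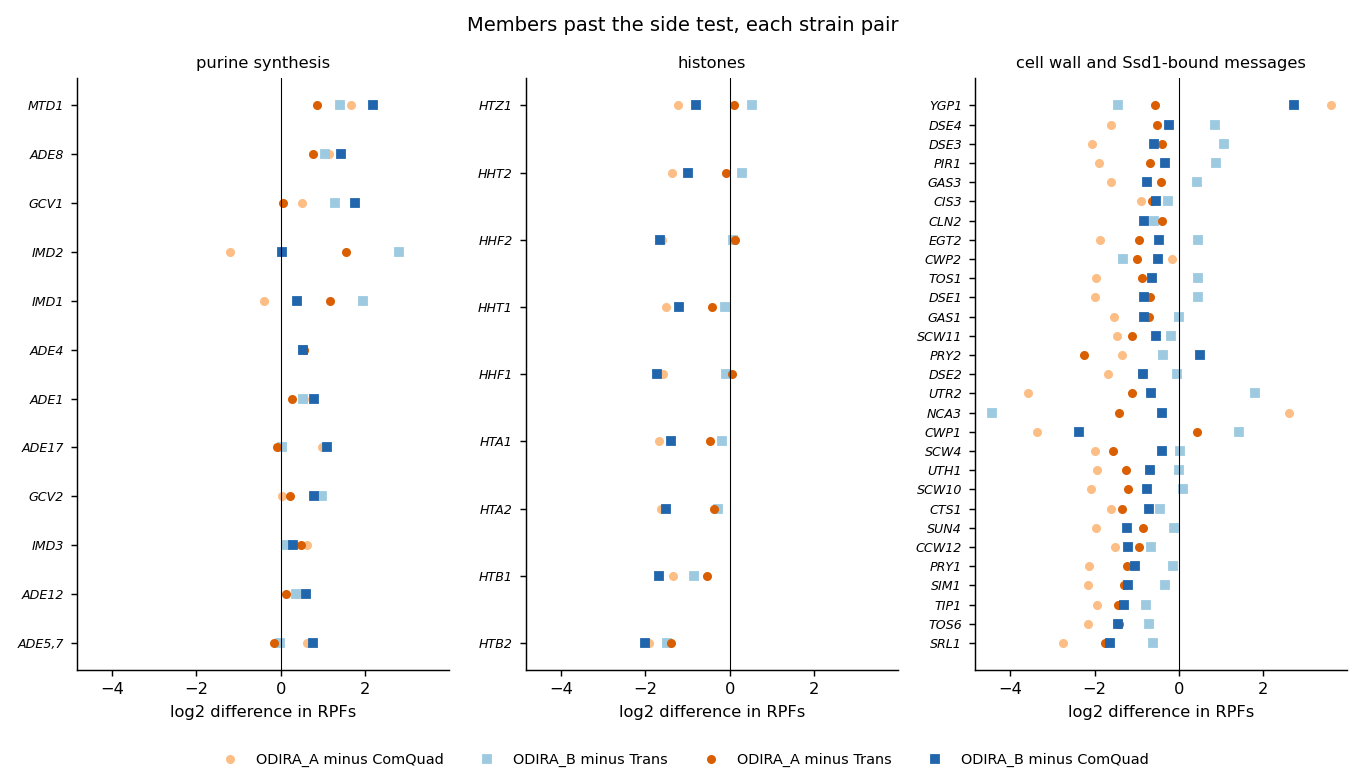
Log2 differences of each ODIRA strain minus each other strain for the members of 3 lists that passed the side test; circles are ODIRA_A and squares ODIRA_B, dark colours the pairs of the same generation and pale colours the pairs of different generations. In purine synthesis MTD1 and ADE8 are the shared members and lie above 0 in all 4 pairs, whereas many cell wall genes have ODIRA_B minus Trans near or above 0.

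Some proteasome subunits were slightly higher in the ODIRA strains. The proteasome degrades ubiquitylated proteins, with a core of PRE and PUP subunits and a regulatory particle of RPN and RPT subunits. Of 35 genes, 8 were higher in the ODIRA strains and 0 lower, against 10.4% and 7.72% of all genes. Of the 35, 7 lay apart and higher, against 3.07% of all genes. Lying apart requires passing the side test, and of the 596 genes called higher in all, 176 lay apart. The differences of the 8 higher proteasome genes were between 0.26 and 0.34, with a median over the list of 0.20, and of 0.12 for ODIRA_A minus Trans. Both pairs of the same generation were above 0 for 24 genes and both below for 0, against 1462 and 1505 of the 5725 genes in all. PRE3, a catalytic subunit, had 215 and 209.7 CPM in ODIRA_A, 238 and 222 in ODIRA_B, 179.5 and 166 in Trans and 185 and 171 in ComQuad (side log2 difference 0.33, standard error 0.08, adjusted p = 0.016). RPN7, of the regulatory particle, had 133 and 145 CPM in ODIRA_A, 144 and 129 in ODIRA_B, 125 and 113 in Trans and 109 and 109.6 in ComQuad (side log2 difference 0.27, standard error 0.08, adjusted p = 0.048). The summed level was 6130 to 6967 CPM in the ODIRA libraries and 5734 to 6152 in the others, which overlap at ODIRA_A and Trans. The count rested on single libraries, from 0 to 19 members higher as 1 library at a time was left out.

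**Figure D4:**
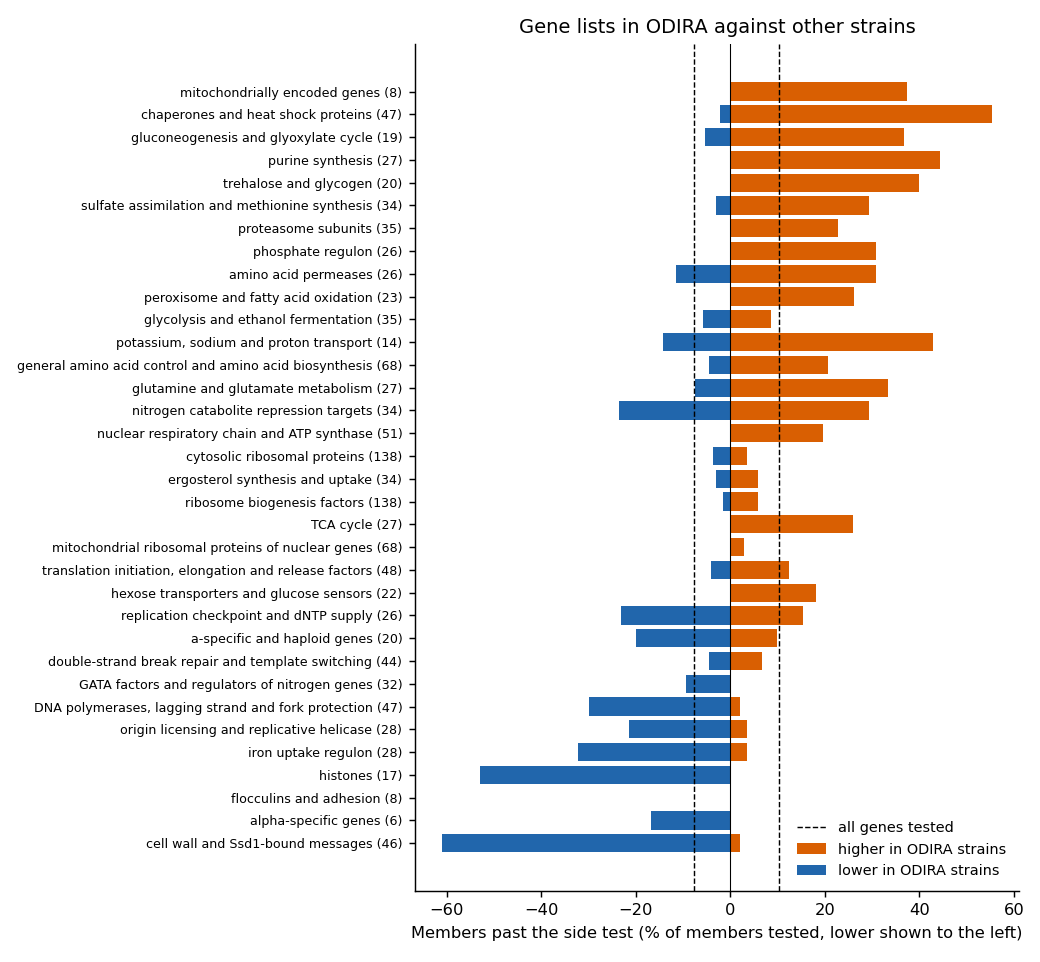
Percentage of the tested members of each list that passed the side test, higher in the ODIRA strains to the right and lower to the left; the number tested is in parentheses and dashed lines mark all genes (10.4% higher, 7.72% lower). The cell wall list has the largest share lower and the chaperone list the largest share higher.

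Chaperones were lowest in ComQuad, and the side count followed that strain. Of 47 genes, 26 were higher on the ODIRA side and 1 lower (10.4% and 7.72% of all genes), with a median of 0.39. Of those that rose, 0 lay apart, against 176 of the 596 genes called higher in all. The number higher ran from 17 to 29 as 1 library at a time was left out. The summed level was 46236 and 49398 CPM in ODIRA_A, 31917 and 27104 in ODIRA_B, 45533 and 45404 in Trans and 13831 and 14641 in ComQuad. ODIRA_A and Trans were alike, ODIRA_B was lower than Trans, and ComQuad was the lowest. The median was -0.01 for ODIRA_A minus Trans and 0.84 for ODIRA_B minus ComQuad. HSP26, a small heat shock protein gene, had 976 and 929 CPM in ODIRA_A, 838 and 503 in ODIRA_B, 1369 and 1094 in Trans and 52.1 and 74.6 in ComQuad (side 1.52, adjusted p = 2.2e-04). HSP104, a disaggregase gene, had 2243 and 2541 CPM in ODIRA_A, 1539 and 1351 in ODIRA_B, 2181 and 2921 in Trans and 411 and 427 in ComQuad (side 0.85, adjusted p = 5.2e-04). The exception was MSN2, a transcription factor of the general stress response, which was lower in the ODIRA strains and lay apart, with 158 and 172 CPM in ODIRA_A, 144 and 172 in ODIRA_B, 175 and 272 in Trans and 251 and 242 in ComQuad (side -0.54, adjusted p = 0.017).

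Of the lists, the cell wall genes had the largest share of members that were lower. The list holds wall glucanases, mannoproteins and daughter-specific genes of cell separation, many of which are targets of Ssd1, and in part it was drawn from messages that the study discusses in these strains, so it is not independent evidence of a direction. Of 46 genes, 28 were lower in the ODIRA strains and 1 higher (7.72% and 10.4% of all genes), with a median of -0.73. In 29 both pairs of the same generation were below 0, with medians of -0.95 for ODIRA_A minus Trans and -0.48 for ODIRA_B minus ComQuad. Against the other generation the picture was uneven, with medians of -1.61 for ODIRA_A minus ComQuad and -0.09 for ODIRA_B minus Trans. The summed level was 13516 to 32526 CPM in the ODIRA libraries and 23107 to 37685 in the others.

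The 5 members that lay apart, of the 28 that were lower, were SRL1, TIP1, CCW12, CIS3 and the G1 cyclin gene CLN2. Over all genes, 2.31% lay apart and lower, which is 132 of the 442 called lower. CCW12, a mannoprotein gene, had 4328 and 3748 CPM in ODIRA_A, 4609 and 5332 in ODIRA_B, 5893 and 9711 in Trans and 12512 and 10555 in ComQuad (side log2 difference -1.08, standard error 0.15, adjusted p = 7.3e-04). SRL1 had 105 and 82.5 CPM in ODIRA_A, 179.8 and 231 in ODIRA_B, 233 and 396 in Trans and 702 and 565 in ComQuad (side log2 difference -1.69, standard error 0.18, adjusted p = 1.3e-04), but it overlaps YOR248W on the same strand, so some of its RPFs may belong to that gene. CLN2 had 37.8 and 34.8 CPM in ODIRA_A, 34.4 and 28.8 in ODIRA_B, 48.3 and 47.5 in Trans and 59.3 and 51.8 in ComQuad (side log2 difference -0.61, standard error 0.10, adjusted p = 0.0022), a smaller and more even change. The chitinase gene CTS1, which acts in cell separation, had 263 and 223 CPM in ODIRA_A, 433 and 479 in ODIRA_B, 391 and 852 in Trans and 829 and 655 in ComQuad (-1.03, adjusted p = 0.0084), and ODIRA_B overlapped with Trans. YGP1, a wall glycoprotein gene of starved cells, was the one that was higher, with 844 and 1051 CPM in ODIRA_A, 565 and 468 in ODIRA_B, 1316 and 1475 in Trans and 67.02 and 90.6 in ComQuad, though both Trans libraries were above every ODIRA library. SSD1 itself had 216 and 236 CPM in ODIRA_A, 340.3 and 362 in ODIRA_B, 224 and 296 in Trans and 232 and 251 in ComQuad and did not pass (0.17, adjusted p = 0.28).

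About as many histone genes passed the side test as did not, and their summed level was far higher in ComQuad than in the other 3 strains. Of 17 genes, 9 were lower in the ODIRA strains and 0 higher (7.72% and 10.4% of all genes), with a median of -0.35. The 4 that lay apart were those of the H2A and H2B pairs, HTA1, HTA2, HTB1 and HTB2. Over all genes, 2.31% lay apart and lower, which is 132 of the 442 called lower. HTA1 had 433 and 407 CPM in ODIRA_A, 512 and 511 in ODIRA_B, 560.1 and 609 in Trans and 1406 and 1272 in ComQuad (side log2 difference -0.93, standard error 0.09, adjusted p = 5.4e-05). HTB2 had 436 and 311 CPM in ODIRA_A, 335 and 363 in ODIRA_B, 544 and 1405 in Trans and 1567 and 1252 in ComQuad (side log2 difference -1.70, standard error 0.27, adjusted p = 0.0031), and Trans replicate 1 was the nearest to the ODIRA libraries. The genes of H3 and H4 passed the side test without lying apart: HHF1 had 598 and 544 CPM in ODIRA_A, 517 and 519 in ODIRA_B, 657 and 442 in Trans and 1798 and 1625 in ComQuad (side -0.83, adjusted p = 0.0011). The median over the list was -0.06 at generation 150 and -0.80 at generation 250. The summed level was 6000 to 6709 CPM in the ODIRA libraries, 6945 and 8518 in Trans and 17148 and 15742 in ComQuad. In bulk cultures, fewer cells in a phase of the cycle and less RNA per cell cannot be told apart.

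Comparing strains of the same generation gave pairs that share no library. ODIRA_A minus Trans gave 58 higher and 151 lower genes, and ODIRA_B minus ComQuad 840 higher and 567 lower. In both, 78 genes passed with the same sign and 46 with opposite signs. Across the 5725 genes, which are not independent replicates, Spearman's rho between the differences was 0.0755, and 51.8% of the genes had the same sign. The difference between the generations in the ODIRA effect was itself tested, and 856 genes passed. Of the 1038 genes called between the sides, 423 were among these, and 173 had opposite signs in the 2 generations.

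**Figure D5:**
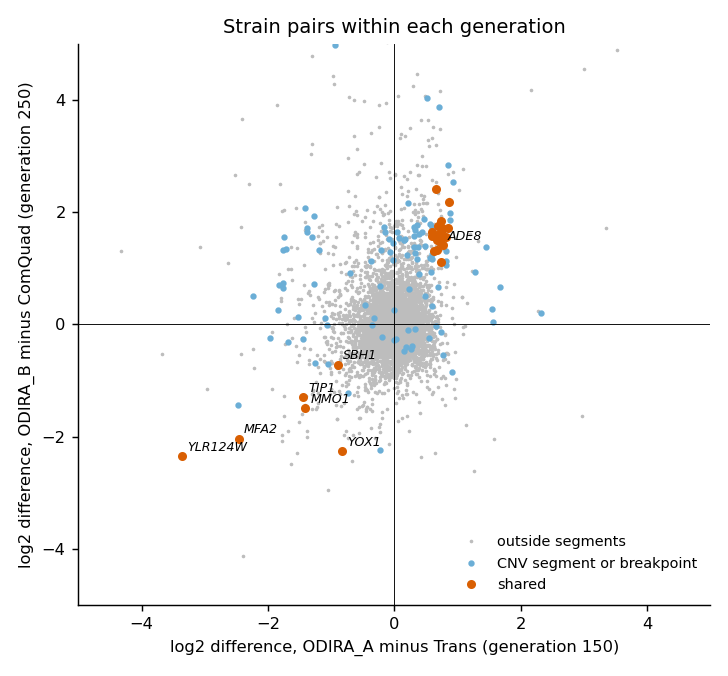
Log2 difference of ODIRA_A minus Trans against that of ODIRA_B minus ComQuad for each tested gene; 24 genes lie beyond the axes. The cloud has little slope (Spearman's rho 0.0755), and the shared genes of the YKR051W to ESL2 segment lie near its medians of 0.65 and 1.58, with the 6 shared falls below 0 on both axes.

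The pairs also differ in size, since the median absolute difference was 0.204 for ODIRA_A minus Trans and 0.288 for ODIRA_B minus ComQuad. At generation 150 the number of calls was 209, and 1736 without Trans replicate 1. HO, the mating-type endonuclease gene, was an example of opposite signs, with 57.9 and 51.2 CPM in ODIRA_A, 88.8 and 89.99 in ODIRA_B, 4.37 and 9.70 in Trans and 289 and 268 in ComQuad. Trans had the fewest RPFs on it and ComQuad the most, so the ODIRA strains were above the one and below the other (interaction 4.60, adjusted p = 1.1e-05).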

How the data were processed

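The deposited values are whole-number counts, 1 table per library, of RPF reads on each annotated feature of R64-1-1. Per the labels and methods, the authors trimmed reads with cutadapt, discarded structural RNA reads, mapped what remained by STAR and obtained strand-matched counts with bedtools. How reads with several matches were treated is not given in the sources used here.

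Counts on CDS lines were summed for 6600 protein-coding genes, and a gene was kept if 2 or more libraries had 10 or more RPFs, which left 5725 for edgeR 4.0.16 (R 4.3.3; TMM, robust quasi-likelihood, 1 coefficient per strain, 4 residual degrees of freedom, Benjamini-Hochberg over all 5725). The common biological coefficient of variation was 0.123. CDS totals ran from 3723082 to 11459498 RPFs. Copies came from the study's description of each CNV and were added as natural log offsets for the correction. Genes cut by a breakpoint were kept out of the segments. Replicates are separate chemostats of 1 clone, and cycloheximide was given before harvest, which halts ribosomes and can shift where they sit. The numbers 1 and 2 were not shown to pair libraries of different strains.

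The genes named were the shared genes, then those outside the CNVs that lay apart, up to 12 in each direction by the smallest pairwise difference, the breakpoint genes, a fixed set of CNV genes, and members of the lists chosen after their values were seen as examples. The strains compared, the rule and the gene lists were chosen with earlier results of these data known. The alternatives were DESeq2 1.42.0, RLE factors, TMM from genes outside the CNVs, other filters, the replicate number as a block, each library left out, counts summed per strain, and models of side alone or with generation. The steps were also run on simulated counts for the 5725 genes. These held no variation between the clones of a side, so they do not bear on the comparison of strains. The ancestor, RNA-seq and proteomics were not used here. The chromosome V segment is not reported here on its own.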

Additional observations from a re-analysis of the deposited data

Results flagged for a closer look

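Among 112 groups of 4 libraries, each side of 56 named genes, 4 held a library far from the other 3. The cut-off gives about 1 in 20 by chance for 4 draws from 1 normal distribution. Each group here holds libraries of different clones, so that rate does not apply as it stands. These were ODIRA_B replicate 2 for YBR284W (10.9 CPM), Trans replicate 1 for NSE1 (32.7 CPM), ODIRA_A replicate 2 for SPS4 (2.23 CPM) and Trans replicate 2 for DAL80 (1291 CPM).

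For 29 named genes the difference of ODIRA_A minus Trans was not that of ODIRA_B minus ComQuad, by edgeR's test of the difference between them, which follows on the log2 scale. On the right arm of chromosome XI it was -1.06 for YKR051W, -0.83 for DYN1, -0.87 for TRM2, -0.94 for TFA2, -0.85 for BET3, -1.75 for MET1, -1.05 for YKR070W, -0.90 for AIM29, -1.31 for MTD1, -0.67 for NUP133, -0.97 for HBS1, -1.11 for MRPL20, -0.67 for PRP16, -0.98 for TVP38, -0.74 for MLP1, -2.41 for PTR2 and -1.35 for ESL2. In YKR051W to ESL2 the copies alone give a difference of this sign, since Trans has 2 and ComQuad 1.

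Elsewhere in or beside the CNVs it was -1.80 for VPS1, -1.05 for SAK1, -1.73 for YER137C, -2.53 for ALY1 and -0.90 for SET3. Outside them it was 6.80 for YLR125W, where Trans is at 0 RPFs and the size has no meaning as a fold, -1.45 for YBR284W, -1.66 for SEO1, 1.44 for YOX1, 1.90 for SPS4, 1.13 for YIL169C and -0.74 for SSD1.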

How the results depend on the processing

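The number of genes called between the sides was 1038, 0 with counts summed per strain, 0 with side as the only term and 270 with side and generation. It ranged from 597 to 2011 with 1 library left out, and the shared genes from 0 to 157. Genes lying apart ranged from 209 to 790, those within generation 150 from 30 to 1736, within generation 250 from 661 to 2143, the difference between generations from 364 to 1951 and the copy-corrected calls from 13 to 39. DESeq2 gave 38 shared genes and 378 genes within generation 150. With the replicate number as a block, 1029 genes were called and 24 were shared, 22 of them the same. The numbers were not shown to pair the libraries (correlations of deviations -0.152 to 0.179).

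With counts summed per strain and with side as the only term, segment medians were 0.36 and 0.34 at the end of chromosome VIII (-0.01039 to 0.82 with 1 library left out, the lowest without ODIRA_B replicate 1), 1.00 and 1.00 from VPS1 to FOX2 (0.71 to 0.79), 0.67 and 0.67 from NTR2 to SAP190 (0.72 to 0.85), 1.02 and 1.02 from YKR051W to ESL2 (1.08 to 1.14), and 0.25 and 0.25 from PCK1 to SKG1 (0.11 to 0.19). From FLO10 to GEX2 the median was -0.43 with no filter and 0.17 when every library had to reach 10 RPFs, so that fewer genes entered (-1.15 to -0.49 with 1 library left out). ALY1, not called, was -0.009357 with side as the only term and -0.08804 to 0.27 with 1 library left out, the lowest without Trans replicate 1. DAL80, not called, ran from -0.20 to 0.003646, the highest without Trans replicate 2. The cause was not tested. ODIRA_B, the shallowest strain, limits what can be said of low genes.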

Other observations

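The counts that follow stand against 10.4% of all genes higher and 7.72% lower in the ODIRA strains. Of 47 genes of DNA polymerases, the lagging strand and the fork, 14 were lower and 1 higher (5 to 19 lower as 1 library at a time was left out), and the summed level was 2068 to 2400.4 CPM in the ODIRA libraries and 2247 to 3048.5 in the others, with ComQuad highest. POL32, a subunit of polymerase delta, had 29.3 and 28.8 CPM in ODIRA_A, 19.98 and 27.9 in ODIRA_B, 34.2 and 61.4 in Trans and 43.4 and 47.8 in ComQuad (-0.82, adjusted p = 0.0099). Of 28 genes of origin licensing and the replicative helicase, 6 were lower and 1 higher (3 to 14 lower with 1 left out). Of 26 genes of the replication checkpoint and dNTP supply, 6 were lower (3 to 7 with 1 left out) and 4 higher, the latter near the share of all genes, and the ribonucleotide reductase gene RNR4 was higher and lay apart, with 1263 and 1029.7 CPM in ODIRA_A, 1437 and 1371 in ODIRA_B, 895 and 849 in Trans and 949 and 824 in ComQuad (0.53, adjusted p = 0.0042).

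Iron uptake genes gave 9 lower and 1 higher of 28 (7.72% and 10.4% of all genes). The permease gene FTR1 had 221 and 183 CPM in ODIRA_A, 235 and 263 in ODIRA_B, 287 and 272 in Trans and 556 and 488 in ComQuad (-0.77, adjusted p = 3.9e-04). The 1 that was higher, MRS4, lies in the YKR051W to ESL2 segment. Peroxisome and fatty acid oxidation genes gave 6 higher and 0 lower of 23 (10.4% and 7.72% of all genes). The 4 that lay apart, against 3.07% of all genes, were FOX2, FAA2, PEX11 and CAT2, of which FOX2 lies in a CNV. CAT2, a carnitine acetyltransferase, had 54.1 and 51.9 CPM in ODIRA_A, 33.6 and 35.5 in ODIRA_B, 30.8 and 28.98 in Trans and 10.1 and 11.6 in ComQuad (1.25, adjusted p = 2.5e-05).

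Among mating genes, which mark cell type in yeast, a-specific and haploid genes gave 2 higher and 4 lower of 20 (10.4% and 7.72% of all genes, so that the number higher is at the background), with summed levels of 1119 to 1891 CPM in the ODIRA libraries and 1516 to 2940 in the others. Of 6 alpha-specific genes 1 was lower, an alpha-factor gene that lay apart, and the summed levels were 80.5 to 115 CPM in the ODIRA libraries and 104 to 182 in the others.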
